A study of Mus musculus with 6 samples.

Results

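Ctnnb1, which encodes beta-catenin, and 9 genes that beta-catenin is known to drive (Axin2, Lgr5, Notum, Nkd1, Rnf43, Znrf3, Tbx3, Glul, and Sp5) were examined in Hepa1-6 tumors. The 10 genes were taken by their symbols from the 26167 genes of the deposited tables, and all 10 passed the filter on low counts that left 16513 genes for testing. Hepa1-6, written Hep1-6 in the labels, is a line of mouse liver cancer cells. The study grew it subcutaneously in C57BL/6J mice (female, 6 to 8 weeks old), so the tumors lay outside the liver and also hold cells of the host. The Sora group (3 tumors, numbered 2, 3, and 4) came from mice given 10 mg/kg Sora (sorafenib, a multikinase inhibitor) ip on days 9, 11, 13, and 15, and the control group (3 tumors, numbered 1, 3, and 4) carried the same cells without Sora. The sources used here do not say whether control mice received a vehicle, and the labels do not say whether each tumor came from its own mouse, so p-values measure the spread between these tumors.

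Wnt ligands bind a Frizzled receptor together with Lrp5 or Lrp6 and stop a destruction complex, built on Axin and Apc, from marking beta-catenin for breakdown. Beta-catenin then enters the nucleus and turns on genes with factors of the TCF/LEF family. Several of these genes brake the pathway themselves, so their mRNA is widely read as a gauge of signaling. In liver the same pathway sets the gene program of hepatocytes around the central vein, Glul among them, and it is often active in liver tumors.

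Each tumor had between 31073830 and 36205814 reads in all, and the 10 genes held between 716 and 28665 reads each in a tumor. Levels are given as FPKM, reads scaled to the length of the gene and to the total of the tumor, which can be compared between genes. Differences are log2 fold changes (Sora minus control) from edgeR's quasi-likelihood test on counts, with p-values adjusted by Benjamini-Hochberg over all 16513 genes, and a gene is called when its adjusted p is under 0.05. The counts of Sora tumor 4 were computed from its FPKM, so fits without it rest on deposited counts alone. Sora tumor 3 stood apart from the other Sora tumors, with the highest value among them for all 9 targets, and results are therefore also given without it. Since the tumor was singled out by these same genes, leaving it out has to enlarge their differences, and those values are a description only. The 8 hepatoma markers all passed the filter and summed to 2597 to 3201 FPKM in control and 2610 to 2840 FPKM in Sora tumors. Alb and Ttr among them were called lower (1.34% of all genes), and Apoa1 and Hnf4a higher (1.94% of all genes). Alb alone was at 1321 to 1680 FPKM in control and 974 to 1198 FPKM in Sora tumors, so it weighs heavily in these sums. Because these are whole tumors, fewer cells of a type and less RNA per cell cannot be told apart.

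Lgr5, Notum, and Glul were down-regulated in Sora-treated tumors (3 of 10 genes called lower, against 1.34% of all genes tested), and no gene of the 10 was called higher (1.94% of all genes). In either direction, 3.29% of all genes were called. All 9 targets had a log2 fold change under 0, with a median of -0.42, against a median of -0.0004 over all genes tested. Nkd1, Rnf43, and Znrf3 lay between -0.37 and -0.51 without passing the threshold, and Axin2, Tbx3, and Sp5 lay between -0.05 and -0.16. The 3 called genes were also those whose Sora tumors were all below the control tumors in CPM, counts scaled to the size of the library (11.6% of all genes), and Ctnnb1 was the 1 gene whose Sora tumors were all above (10.6% of all genes).

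**Figure D1:**
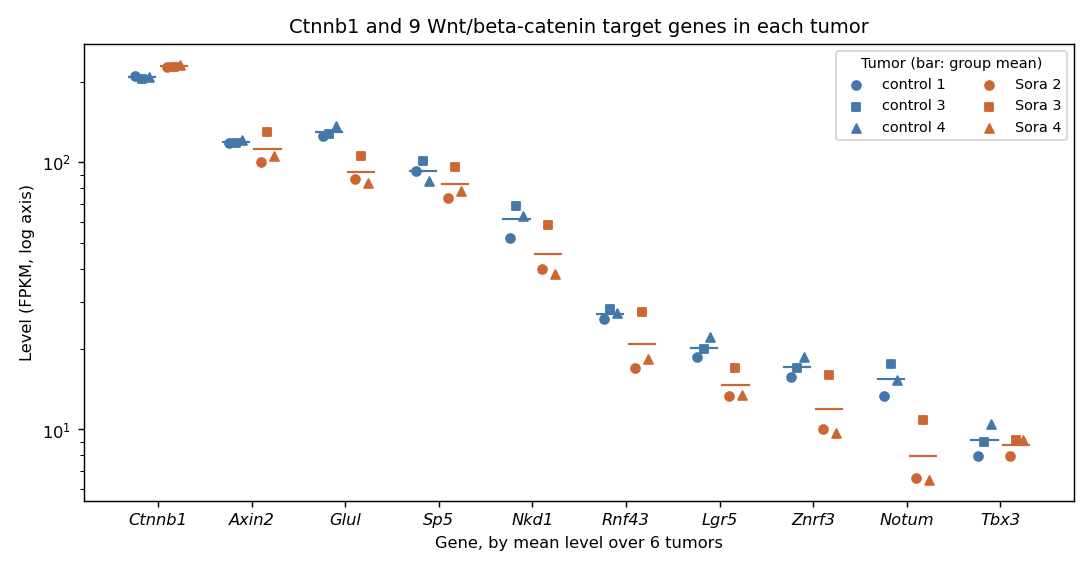
Level of each gene in each of the 6 tumors, in FPKM on a log axis, with control tumors in blue, Sora tumors in orange, and a bar at each group mean (n = 3). Ctnnb1 had the highest and Tbx3 the lowest mean level, and the Sora tumors lay below all control tumors for Glul, Lgr5, and Notum.

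The 10 genes spanned a wide range of levels. Ctnnb1 was highest with a mean of 218 FPKM over the 6 tumors, followed by Axin2 (115 FPKM), Glul (111 FPKM), Sp5 (88.0 FPKM), Nkd1 (53.3 FPKM), Rnf43 (24.1 FPKM), Lgr5 (17.4 FPKM), Znrf3 (14.5 FPKM), Notum (11.7 FPKM), and Tbx3 (8.94 FPKM). The order of several neighbors did not exceed the spread between tumors. Axin2 and Glul changed places, since Glul was above Axin2 in each control tumor and below it in each Sora tumor. Notum was above Tbx3 in the control tumors and in Sora tumor 3, and below it in Sora tumors 2 and 4. Lgr5 was above Znrf3 in all 6 tumors although their ranges overlapped.

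Ctnnb1 lies on chromosome 9 of GRCm38.p6 (120933400 to 120960507). It was at 211, 204, and 209 FPKM in control tumors 1, 3, and 4 and at 227, 227, and 232 FPKM in Sora tumors 2, 3, and 4. The groups did not overlap, and the tumors of each group lay close together. The log2 fold change was 0.15 (standard error 0.07, 95% interval -0.02 to 0.31), and it was not called (adjusted p = 0.35, edgeR). Ctnnb1 mRNA does not measure beta-catenin activity, which is set mainly by the stability of the protein, and no protein was measured here.

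Glul encodes glutamine synthetase, which joins ammonia to glutamate and in normal liver is confined to hepatocytes around the central vein. It lies on chromosome 1 (153899929 to 153909723). Its level was 126, 128, and 137 FPKM in control tumors 1, 3, and 4 and 86.6, 105, and 83.7 FPKM in Sora tumors 2, 3, and 4. Every Sora tumor was below every control tumor, with tumor 3 nearest to the controls. The group means were 130 ± 6.13 and 91.9 ± 11.7 FPKM (SD, n = 3), and edgeR gave a log2 fold change of -0.49 (standard error 0.09) with an adjusted p of 0.021, which is 71.0% of the control level (95% interval 61.7% to 81.6%). The call was lost without control tumor 4 (adjusted p = 0.072), Sora tumor 2 (0.088), or Sora tumor 4 (0.12), in edgeR's test.

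Notum, on chromosome 11 (120653788 to 120661193), encodes a secreted enzyme that inactivates Wnt ligands by removing their lipid. It showed the largest difference of the 10 genes. Its level was 13.3, 17.6, and 15.4 FPKM in control tumors 1, 3, and 4 and 6.597, 10.9, and 6.47 FPKM in Sora tumors 2, 3, and 4. Sora tumors 2 and 4 were at 42.7% and 41.9% of the control mean, and Sora tumor 3 was at 70.4%. In edgeR's test it differed by -0.95 on the log2 scale (standard error 0.18) at an adjusted p of 0.023, which is 51.8% of the control level (95% interval 39.2% to 68.5%). The call was lost without control tumor 3 (adjusted p = 0.060), control tumor 4 (0.073), Sora tumor 2 (0.081), or Sora tumor 4 (0.13), and with robust=TRUE in edgeR (0.083).

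Lgr5, a receptor for R-spondins that marks stem cells of several tissues and hepatocytes around the central vein, lies on chromosome 10 (115450314 to 115587780). It was at 18.6, 19.9, and 22.2 FPKM in control tumors 1, 3, and 4 and at 13.4, 17.0, and 13.5 FPKM in Sora tumors 2, 3, and 4. The groups did not overlap, and Sora tumors 2 and 4 were nearly equal. The difference on the log2 scale was -0.46 with a standard error of 0.10 and an adjusted p of 0.041 in edgeR, or 72.7% of the control level (95% interval 62.0% to 85.3%). The adjusted p was close to the threshold, and the call held with 1 tumor left out only without Sora tumor 3 (adjusted p = 0.0075, edgeR). It was 0.054, 0.088, and 0.12 without control tumors 1, 3, and 4 and 0.15 and 0.19 without Sora tumors 2 and 4. On log2(FPKM + 1) and log2(FPKM + 0.1) of filtered genes limma gave an adjusted p of 0.0655 and 0.0679. Hair follicles also use Lgr5, and 2 of the 8 keratinocyte and hair follicle markers (Krt25 and Krt71) had reads mainly in control tumor 4, where Lgr5 was highest. The other 6 all had a log2 fold change above 0 (median 0.45), none of them called, and the list summed to 133 to 484 FPKM in control and 296 to 437 FPKM in Sora tumors. Its part in the result was not tested. Lgr5 overlaps another gene of the annotation, A930009A15Rik.

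**Figure D2:**
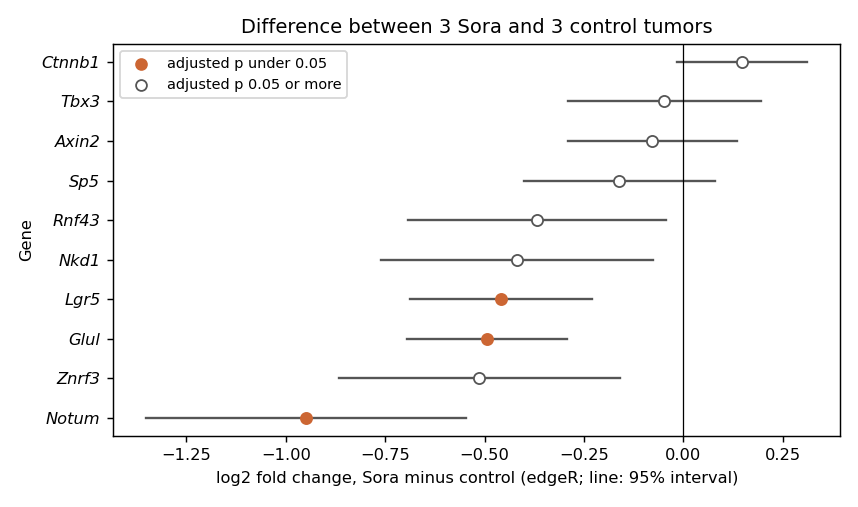
Log2 fold change of each gene between 3 Sora and 3 control tumors with its 95% interval (edgeR), with filled points for an adjusted p under 0.05. Notum, Glul, and Lgr5 are filled, and the intervals of Ctnnb1, Tbx3, Axin2, and Sp5 include 0.

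Rnf43 and Znrf3 encode related membrane-bound ubiquitin ligases that remove Frizzled receptors from the cell surface, the process that R-spondins block. They lie far apart on chromosome 11 (87663087 to 87735539 and 5276329 to 5444847). Znrf3 was at 15.7, 16.9, and 18.7 FPKM in control tumors 1, 3, and 4 and at 10.1, 16.1, and 9.71 FPKM in Sora tumors 2, 3, and 4. Rnf43 was at 25.99, 28.3, and 27.2 FPKM in the control tumors and at 17.0, 27.5, and 18.4 FPKM in the Sora tumors, in the same order. Both genes shared 1 pattern, in which Sora tumors 2 and 4 were below all control tumors and Sora tumor 3 was within the control range. Neither was called, with log2 fold changes of -0.51 for Znrf3 (95% interval -0.87 to -0.16, adjusted p = 0.12, edgeR) and -0.37 for Rnf43 (95% interval -0.69 to -0.04, adjusted p = 0.22, edgeR). Rnf43 overlaps the noncoding gene 1110028F11Rik.

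Nkd1, on chromosome 8 (88521342 to 88594887), encodes an inhibitor that binds Dishevelled. It was at 52.1, 68.5, and 62.7 FPKM in control tumors 1, 3, and 4 and at 39.9, 58.4, and 38.3 FPKM in Sora tumors 2, 3, and 4. The groups overlapped because Sora tumor 3 was above control tumor 1. The log2 fold change was -0.42 (95% interval -0.76 to -0.08, adjusted p = 0.19, edgeR). Without Sora tumor 3, Nkd1 (log2 fold change -0.63, adjusted p = 0.018), Rnf43 (-0.60, 0.0054), and Znrf3 (-0.77, 0.0020) had an adjusted p under the threshold in edgeR's test, which made 6 of 10 genes. With any other tumor left out none of the 3 was called, with adjusted p from 0.129 to 0.515 for Nkd1, 0.278 to 0.566 for Rnf43 (log2 fold change -0.23 without Sora tumor 2), and 0.143 to 0.401 for Znrf3. The fit without Sora tumor 3 also called more genes in all, 574 higher and 571 lower.

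Axin2, Sp5, and Tbx3 did not follow the other targets as far. Axin2, on chromosome 11 (108917828 to 108950783), encodes a scaffold of the destruction complex and is the most general feedback target of the pathway. It was at 118, 118, and 121 FPKM in control tumors 1, 3, and 4, and at 100, 129, and 106 FPKM in Sora tumors 2, 3, and 4. Sora tumor 3 was thus the highest and Sora tumor 2 the lowest of the 6 tumors. The log2 fold change was -0.08 (adjusted p = 0.74, edgeR), and its 95% interval, -0.29 to 0.13, corresponds to 81.7% to 110% of the control level. Without Sora tumor 2 the log2 fold change was 0.001.

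Sp5, on chromosome 2 (70474923 to 70477726), encodes a zinc finger transcription factor of the Sp family that acts within Wnt feedback. It was at 92.9, 101, and 85.1 FPKM in control tumors 1, 3, and 4 and at 73.6, 96.4, and 78.4 FPKM in Sora tumors 2, 3, and 4. Sora tumor 3 again lay within the control range, and the other 2 Sora tumors were below all control tumors. The log2 fold change was -0.16 (95% interval -0.40 to 0.08, adjusted p = 0.50, edgeR). It was -0.07 without control tumor 3, -0.08 without Sora tumor 2, and -0.28 without Sora tumor 3. Tbx3, on chromosome 5 (119670534 to 119684724), encodes a T-box repressor. It was at 7.95, 8.96, and 10.4 FPKM in the control tumors and at 7.98, 9.16, and 9.13 FPKM in the Sora tumors, so the groups overlapped fully. Its log2 fold change was -0.05 (95% interval -0.29 to 0.19, adjusted p = 0.87, edgeR), and it turned positive without control tumor 4 (0.06) or Sora tumor 2 (0.02). Tbx3 overlaps the antisense gene Tbx3os1, and the sources used here do not say whether strand was used in counting.

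**Figure D3:**
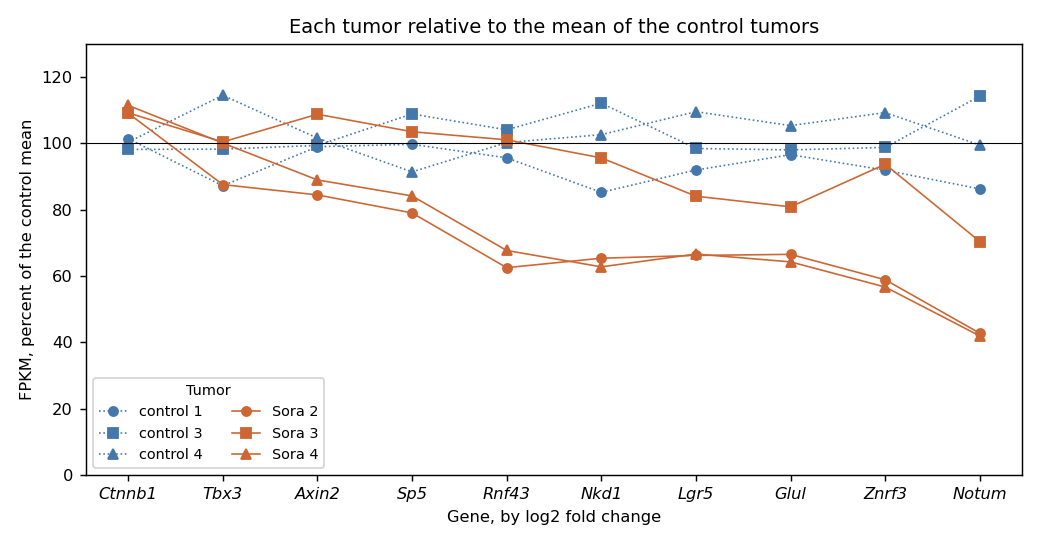
Level of each gene in each tumor as a percent of the mean of the 3 control tumors, with control tumors in blue (dotted) and Sora tumors in orange (solid). Sora tumors 2 and 4 run close together and reach 42.7% and 41.9% at Notum, while Sora tumor 3 stays above them for all 9 targets and is at 70.4% at Notum.

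Viewed tumor by tumor, the 9 targets stood at a median of 66.2% of the control mean in Sora tumor 2, 95.6% in Sora tumor 3, and 66.6% in Sora tumor 4, against 92.0% to 103% in the control tumors. Sora tumors 2 and 4 held the lowest of the 6 values for 8 of the 9 targets, 4 each, and control tumor 1 held it for Tbx3. They stood at 42.7% and 41.9% for Notum and at 87.6% and 100% for Tbx3. In Sora tumor 3, Notum, Glul, and Lgr5 were at 70.4%, 80.9%, and 84.1% of the control mean, and the other 6 targets were at 93.7% to 109%.

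Because the group means of Axin2 were close, each gene was also set against Axin2 in the same tumor, a comparison that does not depend on the scaling of the libraries and that was chosen after the values were seen. The ratio to Axin2 was lower in all Sora tumors than in any control tumor for 5 of the other 9 genes, namely Glul, Lgr5, Notum, Rnf43, and Znrf3 (5.63% of all genes tested). Axin2 was itself highest in Sora tumor 3 (129 FPKM), so dividing by it lowers that tumor more than any other. Rnf43 and Znrf3 overlapped between the groups in FPKM and came apart only as ratios. Glul was at 1.07, 1.08, and 1.14 times the FPKM of Axin2 in control tumors 1, 3, and 4, and at 0.863, 0.814, and 0.791 times in Sora tumors 2, 3, and 4. Sora tumor 3 lay between the other Sora tumors on this scale. The Notum ratio was 0.113, 0.149, and 0.127 in the control tumors and 0.0657, 0.0840, and 0.0612 in the Sora tumors. The Lgr5 ratio was 0.158, 0.169, and 0.184 in the control tumors and 0.133, 0.132, and 0.128 in the Sora tumors. On the log2 scale the ratios differed by -0.41 for Glul, -0.89 for Notum, -0.38 for Lgr5, -0.46 for Znrf3, and -0.31 for Rnf43 (exact permutation test over 20 labelings, two-sided p = 0.1 for each, the smallest that 3 against 3 tumors allow; adjusted p over the 9 genes 0.18). The ratios of Ctnnb1, Nkd1, Tbx3, and Sp5 overlapped between the groups, with differences of 0.23, -0.34, 0.04, and -0.08 (exact permutation test, p from 0.2 to 0.8).

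The 250 bases before the start sites that RefSeq lists were searched on both strands for 4 TCF/LEF motifs of 7 letters, which are CTTTG followed by AA, AT, TA, or TT and exclude each other at any position of a strand. RefSeq windows on GRCm38.p6 were used for 6 of the 10 genes (Ctnnb1, Axin2, Nkd1, Rnf43, Glul, and Sp5), with 8 start sites in all. Matches were found in 1 of these 8 windows, that of Sp5, and 14.8% of all 32851 windows held at least 1. The Sp5 window is shown because its matches sit before a target whose level overlapped between the groups, and the Glul window because Glul was down-regulated and its window held none. Capitals mark the matches, which lie 222 to 216 bases (CTTTGTT, on the opposite strand) and 104 to 98 bases (CTTTGAT) before the start of Sp5. Some start sites lie within the gene coordinates given above. The windows of Axin2 (108920099 to 108920348) and Nkd1 (88527383 to 88527632) and a window of Rnf43 (87699647 to 87699896) were therefore inside those genes. A window of Ctnnb1 (120933328 to 120933577) ran past the first base of the gene. Sites outside the 8 windows, further away or elsewhere inside the genes, were not searched.

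Sp5, chr2:70474673-70474922, plus strand: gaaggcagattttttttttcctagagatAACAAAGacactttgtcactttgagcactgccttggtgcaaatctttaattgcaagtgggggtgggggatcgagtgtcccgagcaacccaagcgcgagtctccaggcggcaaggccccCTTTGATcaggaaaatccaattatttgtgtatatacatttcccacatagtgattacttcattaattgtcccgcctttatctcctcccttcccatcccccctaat

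Glul, chr1:153899679-153899928, plus strand: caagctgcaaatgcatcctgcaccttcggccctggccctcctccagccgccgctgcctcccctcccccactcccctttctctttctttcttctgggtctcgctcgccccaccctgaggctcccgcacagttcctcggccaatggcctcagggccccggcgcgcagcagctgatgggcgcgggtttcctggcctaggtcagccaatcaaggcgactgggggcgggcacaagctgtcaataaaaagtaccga

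The other genes of the pathway were described with lists of ligands, receptors, inhibitors, relay proteins, nuclear factors, and further targets, together with lists of liver zonation and cadherin junction genes. Of 133 genes in these lists 110 were tested, and 6 were called higher and 5 lower (3.29% of all genes were called in either direction). Their median log2 fold change was 0.01. No gene of the lists on relay proteins (18 tested), secreted inhibitors (8 tested), or Wnt secretion (2 tested) was called, and none of the 4 R-spondins passed the filter on low counts, with at most 11 reads in a tumor.

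**Figure D4:**
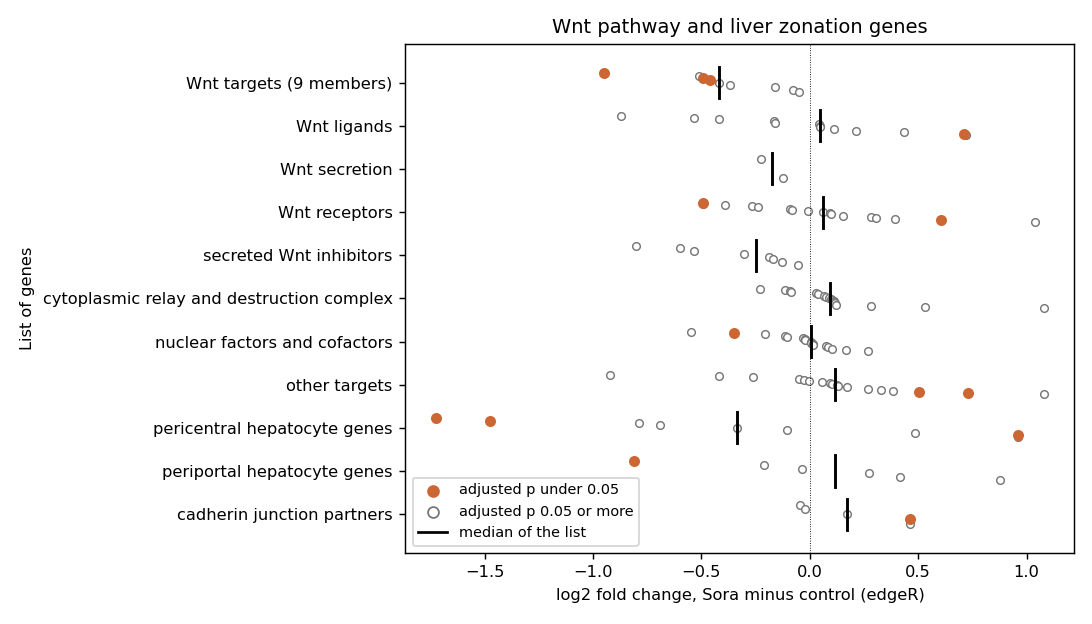
Log2 fold change (Sora minus control, edgeR) of each tested gene by list, with filled points for an adjusted p under 0.05 and a black bar at the median. The median of the 9 targets is -0.42 and that of the pericentral hepatocyte genes is -0.34, and the other lists have medians between -0.25 and 0.17.

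Among the Wnt ligands 13 of 19 were tested, with 1 called higher (1.94% of all genes) and none lower (1.34% of all genes), and a median of 0.05 that turned negative in 7 of 17 alternative settings. Over these settings the median lay between -0.18 and 0.31. Wnt5a, a ligand that mostly signals without beta-catenin, rose from 3.36, 3.29, and 3.82 FPKM in control tumors 1, 3, and 4 to 6.20, 5.11, and 5.72 FPKM in Sora tumors 2, 3, and 4. All Sora tumors were above all control tumors (log2 fold change 0.71, standard error 0.10, adjusted p = 0.0085, edgeR), and the adjusted p was 0.060 without Sora tumor 4. Wnt6 and Wnt10a were the ligands with the highest levels. Wnt6 was at 74.0 ± 4.61 FPKM in control and 55.0 ± 11.04 FPKM in Sora tumors (SD, n = 3), a log2 fold change of -0.42 (adjusted p = 0.087 in edgeR), with groups that did not overlap. Wnt10a was at 21.5 ± 1.82 and 19.0 ± 0.918 FPKM (adjusted p = 0.41, edgeR). The secretion factors Wls and Porcn were not called (log2 fold changes -0.22 and -0.13).

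Of the receptors, 17 of 18 were tested, with 1 called higher and 1 lower, against 1.94% and 1.34% of all genes. Fzd10, a Frizzled receptor, rose from 10.4, 13.5, and 12.2 FPKM in control tumors 1, 3, and 4 to 18.6, 16.8, and 19.0 FPKM in Sora tumors 2, 3, and 4 (log2 fold change 0.60, adjusted p = 0.021, edgeR). Lgr4, a relative of Lgr5 and likewise a receptor for R-spondins, fell from 5.23, 4.61, and 5.05 FPKM to 3.57, 4.02, and 2.92 FPKM in the same order of tumors (log2 fold change -0.49, adjusted p = 0.039, edgeR). Both groups of tumors were separate for each gene. The co-receptor Lrp5 was at 32.0 ± 3.41 FPKM in control and 38.7 ± 0.943 FPKM in Sora tumors (adjusted p = 0.13, edgeR), and Lrp6 and Ryk differed by 0.06 and -0.09 on the log2 scale (adjusted p = 0.74 and 0.59, edgeR). With 1 tumor left out, the call of Fzd10 was lost without control tumor 1 (adjusted p = 0.057), control tumor 4 (0.070), Sora tumor 2 (0.074), or Sora tumor 4 (0.12), and that of Lgr4 in each case (0.068 to 0.16) except without Sora tumor 3, in edgeR's test. Lgr4 was also not called with total counts in edgeR (adjusted p = 0.051) or on log2(FPKM + 1) or log2(FPKM + 0.1) of filtered genes in limma (0.0811 and 0.0848).

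All 8 tested secreted inhibitors had a log2 fold change under 0, with a median of -0.25, although none was called. The median was -0.16 without control tumor 1, -0.38 without control tumor 3, -0.47 without Sora tumor 2, and -0.49 without Sora tumor 3. In limma it was -0.42 and -0.54 on log2(FPKM + 1) and log2(FPKM + 0.1) of filtered genes and -0.12 on log2(FPKM + 1) of all genes. Sfrp2 was the most abundant, at 9.82 ± 2.44 FPKM in control and 5.60 ± 2.26 FPKM in Sora tumors (SD, n = 3), a log2 fold change of -0.80 (adjusted p = 0.13 in edgeR), followed by Sfrp4 (-0.60, adjusted p = 0.27) and Sfrp1 (-0.17, adjusted p = 0.72). These are products of stromal cells in many tissues. Fibroblast markers had log2 fold changes under 0 for 7 of 8 genes (median -0.18), none of them called. For 3 of the 8, all Sora tumors were below all control tumors in CPM (11.6% of all genes). The 8 markers summed to 1919 to 2039 FPKM in control and 1524 to 1838 FPKM in Sora tumors. The part of the fibroblast markers in these values was not tested.

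In the relay and destruction complex, 14 of 18 genes had a log2 fold change above 0, with a median of 0.09, and none was called. Tnks2, Csnk1a1, and Csnk1d were the most abundant, with log2 fold changes of 0.04, 0.10, and 0.10 (adjusted p = 0.855, 0.547, and 0.475, edgeR). Of 17 nuclear factors and cofactors 1 was called lower (1.34% of all genes), namely Tle1, a corepressor of TCF/LEF factors, from 3.09 ± 0.219 to 2.41 ± 0.156 FPKM (SD, n = 3). Its log2 fold change was -0.35 (adjusted p = 0.041, edgeR), a call that with 1 tumor left out held only without Sora tumor 3 (0.031) and was otherwise at 0.069 to 0.19. In limma on log2(FPKM + 1) and log2(FPKM + 0.1) of filtered genes the adjusted p of Tle1 was 0.159 and 0.161. The abundant cofactors Tle3, Smarca4, and Pygo2 differed by 0.01, 0.01, and 0.07 on the log2 scale.

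A further list held genes that serve as beta-catenin targets in other tissues. Of these 22 genes 18 were tested, with 2 called higher (1.94% of all genes) and none lower (1.34% of all genes), and a median of 0.12. Ccnd1 (cyclin D1) was at 211 ± 15.3 FPKM in control and 206 ± 20.1 FPKM in Sora tumors (SD, n = 3), a log2 fold change of -0.03 (adjusted p = 0.91 in edgeR). Myc was at 67.9 ± 5.63 and 73.6 ± 2.56 FPKM (adjusted p = 0.45), and Cd44 was at 134 ± 1.96 and 149 ± 5.69 FPKM (adjusted p = 0.29, edgeR). Sox9, a transcription factor of bile duct and progenitor cells, rose from 18.4, 18.01, and 21.1 FPKM in control tumors 1, 3, and 4 to 29.8, 26.2, and 38.3 FPKM in Sora tumors 2, 3, and 4 (log2 fold change 0.73, adjusted p = 0.021, edgeR). Bmp4, a ligand of the BMP pathway, went from 14.7 ± 0.9004 to 20.7 ± 1.63 FPKM and was called higher (log2 fold change 0.50, adjusted p = 0.023, edgeR). These genes answer to other pathways as well. The call of Sox9 was lost without control tumors 1, 3, or 4 or Sora tumor 4 (adjusted p from 0.054 to 0.074), and that of Bmp4 without control tumors 1 or 4 or Sora tumors 2 or 4 (0.077 to 0.12), in edgeR's test.

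Genes of hepatocytes around the central vein, where beta-catenin is active in normal liver, changed in both directions. Of 11 genes 9 were tested, with 2 called lower (1.34% of all genes) and 1 higher (1.94% of all genes), and a median of -0.34 that stayed under 0 in all 17 alternative settings (-0.37 to -0.16). Slc1a2, a glutamate transporter found beside Glul in these hepatocytes, fell from 1.90, 1.74, and 2.64 FPKM in control tumors 1, 3, and 4 to 0.350, 0.962, and 0.572 FPKM in Sora tumors 2, 3, and 4 (log2 fold change -1.73, standard error 0.28, adjusted p = 0.015, edgeR). Gulo, the last enzyme of vitamin C synthesis, fell from 9.47, 11.2, and 11.9 FPKM to 2.70, 6.64, and 2.33 FPKM in the same order (log2 fold change -1.48, standard error 0.31, adjusted p = 0.030, edgeR). As with Glul and Notum, Sora tumor 3 was the nearest to the controls for both genes. Slc13a3, a dicarboxylate transporter, rose from 2.60 ± 0.482 to 5.02 ± 0.509 FPKM (log2 fold change 0.96, adjusted p = 0.012, edgeR).

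Oat and Lect2, the most abundant genes of the list, had log2 fold changes of -0.11 (adjusted p = 0.57) and -0.34 (adjusted p = 0.053, edgeR). Cyp1a2 and Cyp7a1 had at most 6 and 7 reads in a tumor. The call of Slc1a2 was lost without control tumor 4 (adjusted p = 0.060) or Sora tumor 4 (0.097), that of Slc13a3 without Sora tumor 4 (0.060), and that of Gulo with any tumor but Sora tumor 3 left out (0.054 to 0.13), in edgeR's test. With robust=TRUE in edgeR the calls of Slc1a2 (adjusted p = 0.108) and Gulo (0.186) were lost too, and that of Gulo on log2(FPKM + 0.1) of filtered genes in limma (0.0511). On log2(FPKM + 1) of all genes the log2 fold change of Slc1a2 was -0.93. Of 6 tested genes of hepatocytes around the portal vein 1 was called lower (1.34% of all genes), namely Ass1 of the urea cycle, from 104 ± 25.1 to 59.3 ± 5.78 FPKM (SD, n = 3), a log2 fold change of -0.81 (adjusted p = 0.021 in edgeR), a call lost without Sora tumor 2 (0.074) or Sora tumor 4 (0.12) and with robust=TRUE (0.0562). Hal, the first enzyme of histidine breakdown, was not called (log2 fold change 0.42, adjusted p = 0.588, edgeR).

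Beta-catenin also links cadherins to the cytoskeleton. Of its 5 junction partners 1 was called higher (1.94% of all genes), namely Cdh2 (N-cadherin), from 6.19 ± 0.831 to 8.48 ± 0.462 FPKM (SD, n = 3), a log2 fold change of 0.46 (adjusted p = 0.039 in edgeR). This call was lost without control tumors 1 or 3 or Sora tumors 2 or 4 (adjusted p from 0.078 to 0.17), and in limma on log2(FPKM + 1) or log2(FPKM + 0.1) of filtered genes (0.0696 and 0.0713). Ctnna1, Jup, and Ctnnd1 differed by 0.17, -0.02, and -0.04 on the log2 scale (adjusted p = 0.27, 0.92, and 0.83, edgeR).

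Markers of host cells were read beside the targets. All 7 macrophage markers had a log2 fold change under 0 (median -0.31), none of them called. For 3 of the 7, all Sora tumors were below all control tumors in CPM (11.6% of all genes). The 7 markers summed to 1094 to 1316 FPKM in control tumors and to 928, 1097, and 907 FPKM in Sora tumors 2, 3, and 4. Macrophages can express Glul, and Sora tumor 3 was the highest of its group for 6 of these 7 markers, the exception being Mrc1, chosen after its values were seen. This order was not particular to macrophages. Sora tumor 3 also had the highest sum of its group for the fibroblast, endothelial, muscle, and adipocyte markers. It did not for the hepatoma markers or the keratinocyte and hair follicle markers. For 6 endothelial markers the sum was 58.4 to 68.1 FPKM in control and 44.3 to 62.0 FPKM in Sora tumors, for 5 muscle markers 93.1 to 121 and 101 to 141 FPKM, and for 5 adipocyte markers 50.4 to 73.2 and 55.6 to 83.9 FPKM. Log2 fold changes were above 0 for 3 of 6 endothelial, 5 of 5 muscle (median 0.16), and 4 of 4 tested adipocyte markers (median 0.65). The groups did not overlap for 1 adipocyte marker, which was higher in Sora tumors (10.6% of all genes). They overlapped for every endothelial and muscle marker. No marker of these lists that was tested was called, and 1 adipocyte marker was not tested. No marker of these lists was at 0 in all tumors. The part of these markers in the values of the targets was not tested.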

How the data were processed

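Bulk RNA sequencing covered 6 Hepa1-6 tumors, 3 of them Sora-treated. The authors deposited counts, whole reads per gene without normalization, for 5 tumors in the table used here, and FPKM, which scales each count to its gene's length and its tumor's total, for all 6. The paper names Bowtie2 and GRCm38, whereas the submitters' processing notes list fastp, HISAT2, HTSeq, R 3.2.0, DESeq2, and GRCm39. The annotation and the use of strand are not given in the sources used here. Coordinates and promoter sequences are those of RefSeq on GRCm38.p6, matched by symbol, and enter no value.

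In the 5 shared tumors each FPKM equals the count divided by 1 length per gene and the total. The counts of Sora tumor 4 were computed with these lengths. Each computed count (100%) lay within 0.001 of an integer. The same steps returned every total and count they reached when each other tumor was treated as unknown. In Sora tumor 4, 342 genes had no known length and were left at 0, and they held 512 reads.

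The 16513 genes that reached 10 counts in 3 or more tumors were tested with edgeR 4.0.16 in R 4.3.3 (TMM, glmQLFit, glmQLFTest, robust=FALSE). The standard error is the log2 fold change divided by the square root of F, and 95% intervals use its t distribution. Alternatives were DESeq2 1.42.0, limma 3.58.1 (voom on counts, and log2(FPKM + 1) or log2(FPKM + 0.1) of genes with at least 1 FPKM in 3 tumors or of all genes), 2 other scalings, 2 other filters, a replicate block, robust=TRUE, and leaving out each tumor. The scripts were tested on simulated data.

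The 10 genes and all lists were chosen with earlier results of these data known. Named from the lists are each gene with an adjusted p under 0.05 and the 3 with the highest mean FPKM, of which 1 gene is not reported here. Krt25, Krt71, Cyp1a2, and Cyp7a1 were named after their values were seen.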

Additional observations from a re-analysis of the deposited data

How the results depend on the processing

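Of the 10 genes, 3 were called lower in the main setting, 5 without a filter, 1 (Notum) with the replicate block, and none on log2(FPKM + 1) of all genes, where limma called no gene in all (1598 higher and 1545 lower at an unadjusted p under 0.05, 12% of all genes, and 5 of the 10). Tumors numbered 3 and 4 occur in both groups, but the deviations of same-numbered tumors from their group means correlated at -0.033 and -0.074, so the numbers were not taken as pairs. With the replicate block the adjusted p in edgeR was 0.157 for Lgr5 and 0.156 for Glul, and the calls of Fzd10, Lgr4, Tle1, Bmp4, and Cdh2 were lost (0.18 to 0.324). Control tumor 1 and Sora tumor 2 are each alone in their block, so the group difference in this fit rests on tumors 3 and 4 of each group. Lost calls in it cannot separate an effect of pairing from that of fewer tumors. With 1 tumor left out, between 0 and 6 of the 10 were called lower. None was called without control tumor 4, Sora tumor 2, or Sora tumor 4, where 4 of the 10 had an unadjusted p under 0.05 in edgeR, against 15.5%, 12.5%, and 11.9% of all genes in these fits. The median log2 fold change of the 10 genes, -0.39, lay between -0.58 (without Sora tumor 3) and -0.28 with 1 tumor left out. Log2 fold changes changed sign for Axin2 (-0.19 to 0.001 with 1 tumor left out) and Tbx3 (-0.15 to 0.057, with 0.0225 without Sora tumor 2). The signs of the other 8 genes held in all 17 alternatives.

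Over all genes, 321 were called higher and 222 lower, against 626 and 576 in DESeq2, 570 and 577 without a filter, 180 and 106 on log2(FPKM + 1) and 166 and 86 on log2(FPKM + 0.1) of filtered genes, and 80 and 45 with the replicate block, and 4 to 574 and 1 to 571 with 1 tumor left out. The cause of these differences was not tested. Genes of few reads, such as the R-spondins, were left out by the filter on low counts.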
